A study of Mus musculus with 4 samples.

Results

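The genes described here encode the proteasome, and they were taken as every gene symbol in the deposited tables that starts with Psma to Psmg and a number. The rule found 45 of the 27189 gene entries. One of these, Psmc3ip, encodes a meiotic recombination protein that shares only the letters of its name with an ATPase subunit, so 44 entries were proteasome genes. They were 8 core alpha genes, 7 core beta genes, 3 immunoproteasome genes, 6 ATPase genes, 3 further genes of the base, 8 lid genes, 5 activator or inhibitor genes and 4 assembly chaperone genes. The study sequenced polyadenylated RNA from laser-captured spinal motor neurons of transgenic mice at 3 months of age, when the mutant animals are largely without symptoms. Wild-type SOD1-YFP mice (strain 592, n = 2) and G85R SOD1-YFP mice (strain 737, n = 2) were compared, with 1 library from each mouse. Both strains carried the human SOD1 gene as a genomic fragment fused to YFP, a fluorescent tag, and both were kept on a mixed C57BL/6J and SJL/J background. The strains differed in transgene copy number and insertion as well as in the mutation, and darkly stained cells with large aggregates were left out of the capture in the G85R animals, so the mutation cannot be told apart from these differences.

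The proteasome degrades proteins that carry ubiquitin chains. Its core particle is a barrel of alpha rings, which gate the entrance, around beta rings, which hold the catalytic sites. A cap, the regulatory particle, consists of a base with ATPases that unfold the substrate and a lid that removes the ubiquitin. Interferon induces alternative catalytic subunits, which form the immunoproteasome, and the activator Psme1-Psme2. Misfolded SOD1, the product of the G85R allele, is a substrate of this degradation route in cultured cells.

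Values were RPKM, the reads of a gene scaled to the length of its transcript in kilobases and to the depth of the library, so levels of different genes can be set side by side. The 4 libraries held an estimated 21560318 to 25186594 reads on genes, and a single read was worth a median of 0.0195 to 0.0226 RPKM. All 8 motor neuron markers examined were detected, with a mean of 65.7 RPKM for Chat, which makes acetylcholine, 389 RPKM for its vesicular transporter Slc18a3 and 746 RPKM for the neurofilament gene Prph. Of these 8 markers 7 were lower in G85R, at a median log2 fold change of -0.21, and 0 were called (limma). Other cells were also represented. Of 12 microglia markers, 10 could be tested and all 10 were higher in G85R (median log2 fold change 0.62), with 0 called at an adjusted p under 0.05 (limma), and their summed level was 44.4 and 46.4 RPKM in the wild-type libraries and 86.1 and 51.4 RPKM in the G85R libraries. The summed astrocyte markers stood at 499 and 487 RPKM against 802 and 515 RPKM, of which Aldoc, with a mean of 508 RPKM, made up most. Of the 8, 7 were higher in G85R (median log2 fold change 0.29) with 0 called, and Gfap, the astrocyte filament gene, was at 11.5 and 17.1 RPKM against 91.9 and 28.4 RPKM (log2 fold change 1.86, limma adjusted p = 0.212). The oligodendrocyte markers summed to 905 and 854 RPKM against 1080 and 832 RPKM, and the endothelial markers to 12.9 and 12.5 RPKM against 11.6 and 10.8 RPKM. The red blood cell markers summed to 1.82 and 2.10 RPKM against 11.5 and 10.8 RPKM, mostly from the beta globin gene Hbb-b1. The higher of its 2 entries, used here, was at 1.75 and 2.00 RPKM against 10.7 and 10.2 RPKM. Hbb-b1 was the only one of these markers tested and was called (log2 fold change 2.42, limma adjusted p = 0.00173). The part of these cells in the values below was not tested. In captured tissue, fewer cells of a type and less RNA per cell cannot be told apart.

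Proteasome genes were among the more abundant messages of these motor neurons, and none passed the test between genotypes. A gene was tested where its mean over the 4 libraries was at least 1 RPKM, which 11530 genes and 41 of the 45 entries reached. In limma, with adjustment over all tested genes, 0 of the 41 had an adjusted p under 0.05, while 0.642% of all tested genes did. At an unadjusted p under 0.05 the count was also 0 of 41, against 11.0% of all tested genes. The log-linear test that the study used takes RPKM as counts and does not measure the spread between mice. Rerun on all 27189 entries without a minimum level, it also called 0 members. It gave 1 of them, Psmb6, an unadjusted p under 0.05, where 0.228% of all genes were called and 1.29% had such an unadjusted p. The median level of the 41 genes was 94.7 RPKM and that of all tested genes 10.1 RPKM.

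**Figure D1:**
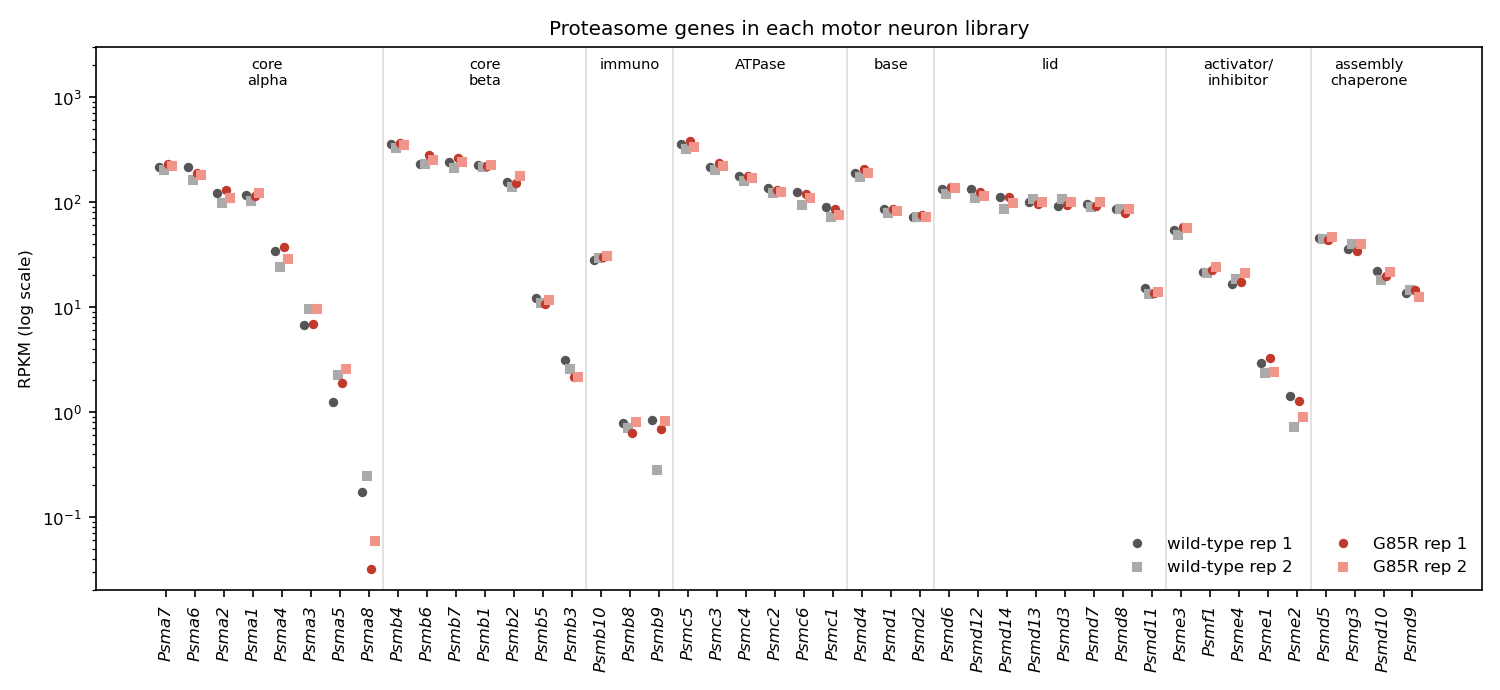
Level of each proteasome gene in each library, in RPKM on a log scale, with genes grouped by their place in the complex and ordered by mean level. Each point is 1 library (1 mouse), with 2 for each genotype. The points of a gene mostly lie close together, while the standard core genes range from 351 RPKM for Psmb4 to 1.99 RPKM for Psma5.

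Subunits of a ring are assembled in equal numbers, yet their messages were deposited at very unequal levels. Over the 14 standard core genes, the coefficient of variation was 83.3% ± 1.15 (SD over 4 libraries), and the highest, Psmb4, was 176 times the lowest, Psma5. Many proteasome genes have processed copies elsewhere in the mouse genome, and a read that matches a copy as well as the gene has no single location, so each gene's coding sequence was searched for such copies. Windows of 75 bases, the length of the reads, were matched to all other positions of the NCBI37 (mm9) assembly with at most 2 mismatches. Of the 44 genes, 26 had no match in any coding window. All coding windows of Psmb3 and Psma5 were matched elsewhere, as were 96.1% of those of Psmb5, 93.7% of Psma3, 80.3% of Psmd11 and 77.8% of Psma4.

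To show how close these copies are, the following runs of 30 bases give the coding strand of the gene and then the copy in mm9, with capitals at the bases that differ. Psmb3 and its copy start at the first coding base. The copy at chr16:21896579-21896608 (plus strand) lies in a locus that overlaps the annotated pseudogene Gm6467 and the protein-coding gene Map3k13.
Psmb3 gene: atgtctattatgtcctataatggaggggcc
Psmb3 copy: atgtctattatgtcctataatggaggggcc
The Psma5 run also begins at the first coding base. Its copy at chr10:84776314-84776343 (plus strand) lies in a locus that overlaps a model named Gm8394, annotated as protein coding.
Psma5 gene: atgttcctcactcggtccgagtacGacagg
Psma5 copy: atgttcctcactcggtccgagtacAacagg
For Psmb5, coding bases 263 to 292 are matched by chr7:3181357-3181386 (plus strand), where the annotation holds no gene.
Psmb5 gene: agacggtgaagaaagtaatagagatcaacc
Psmb5 copy: agacggtgaagaaagtaatagagatcaacc
For Psme2, the first coding bases are matched by chr11:48759591-48759620 (minus strand), in a locus that includes Psme2b-ps.
Psme2 gene: atggccaagccttgtggggtccgcttgagt
Psme2 copy: atggccaagccttgtggggtccgcttgagt
The 3 pairs without capitals were identical over these 30 bases, and the Psma5 pair differed at 1 base. A Psma3 run taken in the same way, not shown, differed at 2 bases. Exact matches over a whole read length were fewer: of all transcript windows, UTRs included, 39.5% had an exact match elsewhere for Psmb3 (97.1% with up to 2 mismatches), 42.7% for Psma5 (78.0%), 45.9% for Psmb5 (96.5%) and 51.7% for Psme2 (79.2%). The shares were 29.9% for Psma4 (76.8%), 26% for Psma3 (32.9%) and 12.6% for Psmd11 (42.3%).

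Among the constitutive subunits, those with the largest shares of coding windows matched were the ones with low values. Of the 31 constitutive genes of the core, ATPase ring, base and lid, the 6 with at least 77.8% of coding windows matched elsewhere had means of 1.99 to 31.3 RPKM. The other 25 were at 72.8 RPKM or above, the lowest of them being Psmd2, with 57.2% of its coding windows matched. Psmc1 had 62.4% matched and 81.2 RPKM, and Psma2 had 37.2% and 115 RPKM. The split held for coding windows only. Over whole transcripts, 55.8% of windows were matched for Psmd2 and 55.3% for Psmc1, more than for Psmd11 (42.3%) and Psma3 (32.9%). Exact matches covered 15.1% of the transcript windows of Psmd2 and 12.6% of those of Psmd11. Across the 31 genes the share of coding windows matched and the mean level had a Spearman rho of -0.631, a description across genes, which are not independent replicates. Over all 44 genes the rho was -0.281. Psma8, Psmb8 and Psmb9 were under 1 RPKM with 0% of their coding windows matched, and Psmd9, Psme4, Psmd10, Psmf1, Psmb10, Psmg3, Psmd5 and Psme3, also at 0%, lay between 13.7 and 54.0 RPKM. Among the 5 core genes with under 5% of windows matched, the coefficient of variation was 44.3% and the highest-to-lowest ratio 3.09. The low values of Psmb3, Psma5, Psmb5, Psma3, Psmd11 and Psma4 are given below beside these shares, and whether the copies set them was not tested.

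**Figure D2:**
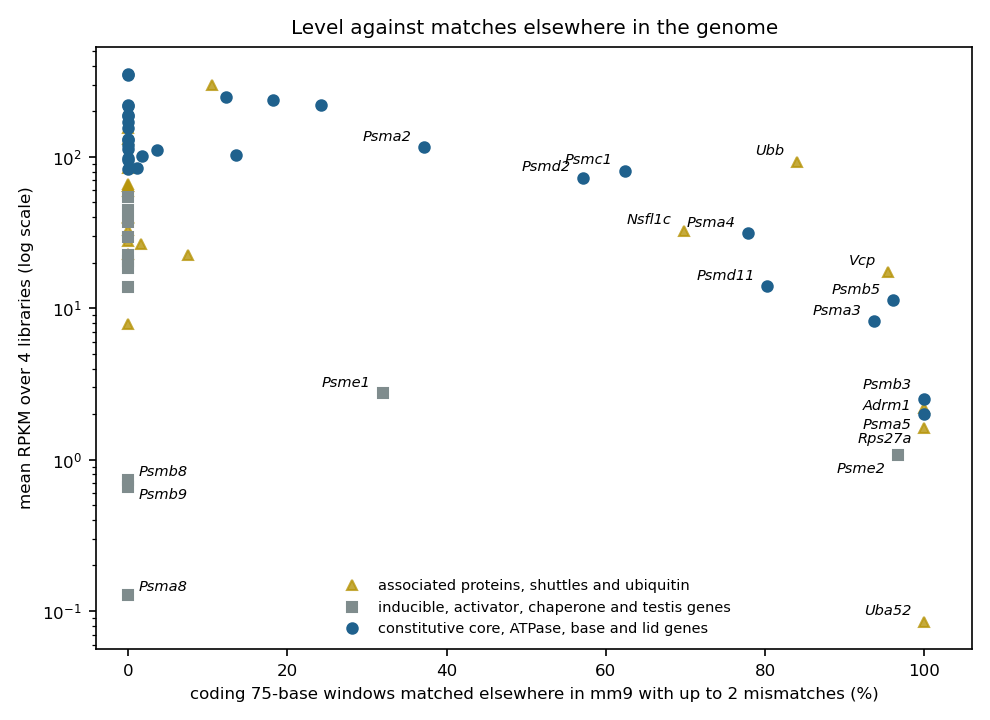
Mean RPKM over the 4 libraries (log scale) against the share of a gene's coding 75-base windows that match elsewhere in mm9 with up to 2 mismatches, 1 point for each gene. Constitutive core, ATPase, base and lid genes with at least 77.8% matched lie at 1.99 to 31.3 RPKM, and all others of that kind lie at 72.8 RPKM or above.

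Among the core alpha genes, the G85R mean was the higher one for 6 of 7 tested, their median log2 fold change was 0.11, and 0 were called. Psma7, the most abundant alpha gene, was at 216 and 200 RPKM in the wild-type libraries and at 229 and 218 RPKM in the G85R libraries, so the groups did not overlap (log2 fold change 0.10 ± 0.10 SE, limma adjusted p = 0.777). Psma4, which encodes a gate subunit, was at 34.3 and 24.3 RPKM against 37.6 and 28.9 RPKM. Replicate 1 was above replicate 2 in both genotypes for Psma4, and the groups overlapped. Psma5 was at 1.24 and 2.26 RPKM in wild-type and 1.91 and 2.58 RPKM in G85R, which rests on 44 to 89 estimated reads. Its log2 fold change of 0.38 was the highest of the 41, with a 95% interval from -0.34 to 1.11. Psma8, the testis form of the alpha subunit that Psma7 encodes elsewhere, was at 0.174, 0.245, 0.0317 and 0.0597 RPKM, or 1 to 9 estimated reads, and was not tested.

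Of the 7 core beta genes, 5 were higher and 2 lower in G85R (median log2 fold change 0.07). The most abundant member of all, Psmb4, encodes a beta subunit without a catalytic site and lies at chr3:94688015-94690883 (mm9, minus strand). It was at 356 and 329 RPKM in wild-type and 369 and 348 RPKM in G85R, above 98.8% of tested genes. Psmb6, the caspase-like catalytic subunit (chr11:70338869-70341360, plus strand), was at 233 and 232 RPKM against 280 and 253 RPKM. Both G85R libraries were above both wild-type libraries, and the log2 fold change was 0.20 ± 0.10 SE with an unadjusted p of 0.083 and an adjusted p of 0.530 (limma). Psmb7, the trypsin-like subunit, was at 242 and 212 RPKM against 261 and 240 RPKM, with overlapping groups and a log2 fold change of 0.14. Psmb5, the chymotrypsin-like subunit and the target of proteasome inhibitor drugs, was at 12.1 and 11.1 RPKM against 10.7 and 11.7 RPKM, with 96.1% of its coding windows matched elsewhere. Its log2 fold change was -0.05. Psmb2, a non-catalytic beta subunit, was at 155 and 139 RPKM against 153 and 176 RPKM, with a log2 fold change of 0.16.

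Psmb3 had the lowest log2 fold change of the 41, -0.38 ± 0.18 SE. Its values were 3.12 and 2.58 RPKM in wild-type and 2.14 and 2.16 RPKM in G85R, on 56 to 90 estimated reads, so both G85R libraries lay below both wild-type libraries. The unadjusted p was 0.067 and the adjusted p 0.496, the lowest adjusted p of any member (limma). All its coding windows were matched elsewhere in the genome with up to 2 mismatches, and the part of the copies in this difference was not tested.

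The 3 genes of the immunoproteasome were expressed at very different levels from one another. Psmb10, which replaces Psmb7 in the immunoproteasome, was at 27.9 and 29.3 RPKM in wild-type and 29.9 and 30.7 RPKM in G85R, a log2 fold change of 0.08 ± 0.10 SE (limma adjusted p = 0.861). Psmb8, which replaces Psmb5, was at 0.785, 0.700, 0.633 and 0.809 RPKM in the same order of libraries, and Psmb9, which replaces Psmb6, was at 0.849, 0.280, 0.697 and 0.831 RPKM. These were 14 to 19 estimated reads for Psmb8 and 7 to 20 for Psmb9 in each library, under the minimum for a test, although neither gene had a copy in the genome. Psmb9 overlapped between genotypes, with 1 wild-type library below the other 3.

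The immunoproteasome genes made up 5.71% and 6.24% of the summed RPKM of the 6 catalytic genes in wild-type motor neurons, and 5.35% and 6.02% in those of G85R mice. Most of this share was Psmb10, with a mean of 29.4 RPKM over the libraries against 0.732 RPKM for Psmb8 and 0.664 RPKM for Psmb9. The mean shares were 5.98% ± 0.371 (SD, n = 2) and 5.68% ± 0.474 (SD, n = 2), a difference of -0.292 percentage points (exact permutation test, two-sided, p = 0.667). With 2 libraries a group, the smallest p this test allows is 0.333. Psmb10 was 11.2% of Psmb10 and Psmb7 together in wild-type and 10.8% in G85R, and Psmb9 was 0.242% and 0.288% of Psmb9 and Psmb6. Psmb8 was 6.02% and 6.04% of Psmb8 and Psmb5, which overstates Psmb8 as far as Psmb5 is counted too low. The share over all 6 genes would be overstated in the same direction. The part of other captured cells in these shares was not tested.

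The 6 ATPase genes, which encode the ring that unfolds substrates, had a median log2 fold change of 0.05, with 4 higher and 2 lower in G85R. Psmc5, the most abundant, was at 355 and 317 RPKM against 381 and 336 RPKM. Psmc1, the least abundant, was at 90.2 and 72.6 RPKM against 86.4 and 75.8 RPKM, a log2 fold change of -0.00. For all 6 genes replicate 1 was above replicate 2 in both genotypes, and for all 6 the second wild-type library was the lowest of the 4. The only ATPase gene whose groups did not overlap was Psmc3, at 216 and 203 RPKM against 237 and 219 RPKM (log2 fold change 0.12, limma adjusted p = 0.726).

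The 3 remaining base genes had a median log2 fold change of 0.03. Psmd4, a ubiquitin receptor of the base, was at 189 and 172 RPKM against 208 and 190.0 RPKM, and the groups were apart by less than 1 RPKM (log2 fold change 0.14, limma adjusted p = 0.708). Psmd2, a scaffold of the base, was at 71.6 and 72.4 RPKM against 74.6 and 72.6 RPKM. Of the 8 lid genes, 4 were higher and 4 lower in G85R by the sign of the log2 fold change. Their median log2 fold change was -0.01, and they ranged from -0.06 to 0.12. Psmd6 was the most abundant of the lid, at 132 and 121 RPKM against 139 and 135 RPKM. Psmd14, the lid's deubiquitinating enzyme, was at 112 and 86.9 RPKM against 112 and 98.9 RPKM, and its wild-type libraries were farther apart than the genotypes. Psmd13 was at 99.4 and 108 RPKM against 96.9 and 101 RPKM, and Psmd8 at 85.2 and 86.3 RPKM against 79.3 and 86.5 RPKM, with log2 fold changes of -0.06 and -0.05. Psmd11, whose coding sequence is largely matched elsewhere, was lowest, at 15.1 and 13.3 RPKM against 13.7 and 13.8 RPKM.

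All 5 activator and inhibitor genes had a positive log2 fold change, from 0.06 to 0.16, and 0 were called. Psme3, a nuclear activator that does not need ubiquitin, was at 53.7 and 48.2 RPKM in wild-type and 57.7 and 56.2 RPKM in G85R (log2 fold change 0.16 ± 0.11 SE, limma adjusted p = 0.662). Psme4, another nuclear activator, was at 16.5 and 18.5 RPKM against 17.4 and 21.3 RPKM. The groups did not overlap for Psme3 and overlapped for Psme4. The inhibitor and regulator Psmf1 was at 21.8 and 21.1 RPKM against 22.5 and 24.1 RPKM. The interferon-induced pair was low: Psme1 was at 2.97 and 2.36 RPKM against 3.25 and 2.41 RPKM, and Psme2 at 1.44 and 0.718 RPKM against 1.28 and 0.889 RPKM, on 19 to 35 estimated reads. In both genes replicate 1 was above replicate 2 in both genotypes. Of the coding windows, 96.7% were matched elsewhere for Psme2 and 32% for Psme1.

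Assembly chaperones build the core and the base and then leave. The 4 with an entry of this name had a median log2 fold change of -0.02, 1 being higher and 3 lower in G85R. Psmd5 was at 45.0 and 44.2 RPKM against 43.1 and 46.1 RPKM and was the most abundant of them, and Psmd9 was the least abundant, at 13.7 and 14.5 RPKM against 14.4 and 12.4 RPKM. Psmg1 and Psmg2 stood under their older symbols: Dscr2 had a mean of 11.5 RPKM and a log2 fold change of -0.00, and Tnfsf5ip1 a mean of 26.6 RPKM and -0.11. Pomp, which assembles the beta rings, had a mean of 298 RPKM, above every other assembly gene examined.

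**Figure D3:**
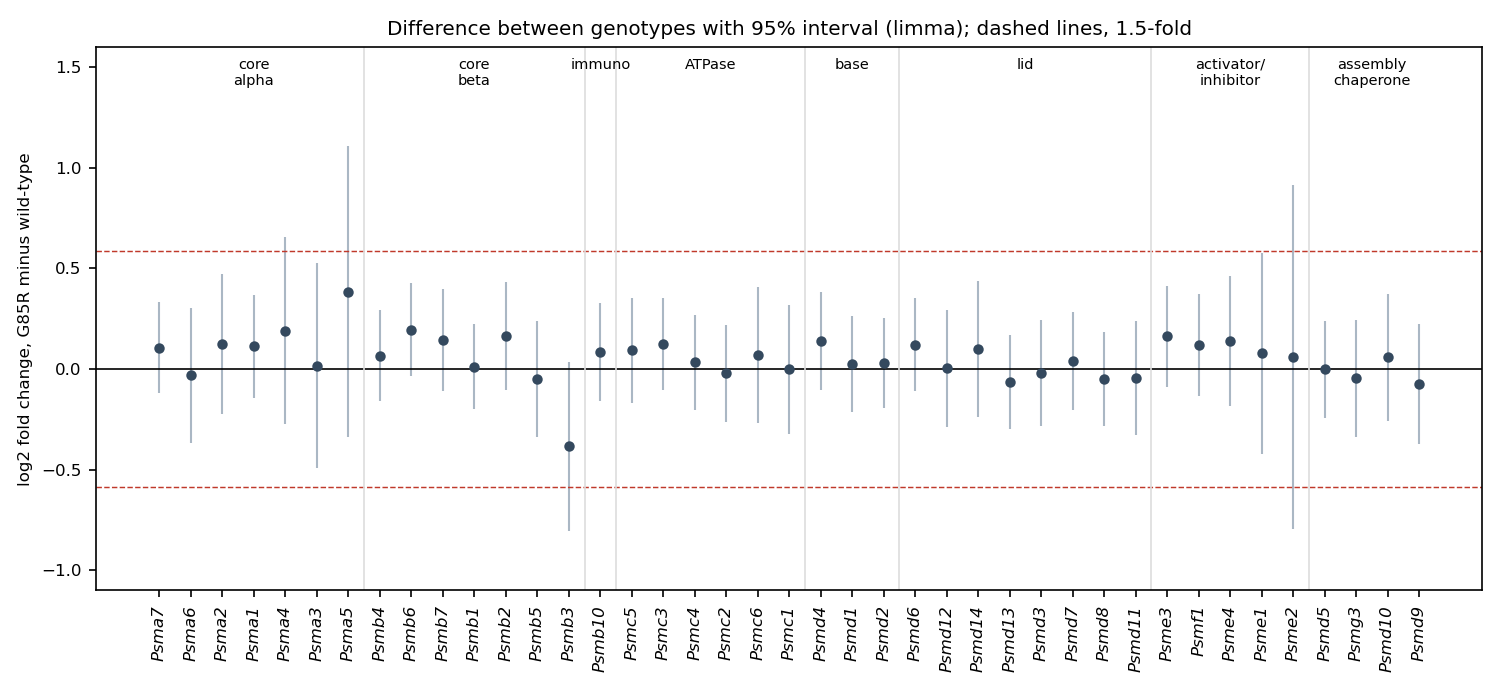
Log2 fold change of G85R over wild-type for the 41 tested genes, on the log2(RPKM + 0.1) scale, grouped by their place in the complex. Points are limma estimates and bars are 95% intervals, with n = 2 for each genotype; dashed lines mark a 1.5-fold difference. The intervals of 37 genes lie inside the dashed lines, and those of Psma4, Psma5, Psmb3 and Psme2 reach past them.

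Across the 41 genes, 29 had a positive and 12 a negative log2 fold change, or 70.7% positive against 45.3% of all tested genes. The median log2 fold change was 0.06 against -0.02. For 10 of the 41 the groups did not overlap, a share of 24.4% that was below the 41.2% of all tested genes. Of these, 9 were higher in G85R (Psmc3, Psmd4, Psmd2, Psma7, Psmb6, Psmb10, Psmd6, Psme3 and Psmf1) and Psmb3 was lower, where 17.3% of all tested genes were higher and 23.9% lower in this way. For 37 of 41 genes the 95% interval lay within 1.5-fold in either direction, which held for 67.3% of all tested genes. The exceptions were Psma4, Psma5, Psmb3 and Psme2, each with at least 77.8% of its coding windows matched elsewhere. Psmb5, Psma3 and Psmd11, with 96.1%, 93.7% and 80.3% matched, had intervals within 1.5-fold. The variance behind the intervals follows a trend with level, and the members had a median of 94.7 RPKM against 10.1 RPKM for all tested genes. The part of level in the share of narrow intervals was not tested. Under 5% of coding windows were matched in 26 tested genes, and among them 18 were higher in G85R and the median was again 0.06.

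The direction of the median rested on 1 mouse. The second wild-type library was the lowest of the 4 for 28 of the 41 genes, while it was lowest for 24.0% of all tested genes. It lay below the first wild-type library for 31 of 41 members (75.6%, against 49.4% of all tested genes), whereas replicate 2 of G85R lay below replicate 1 for 23 of 41 (56.1%, against 54.2%). Measured from each gene's mean over the 4 libraries, the median member stood at 0.02 and -0.09 in the wild-type libraries and at 0.03 and 0.00 in the G85R libraries, on the log2 scale. The corresponding medians over all tested genes were between -0.02 and 0.02. For 31 of the 41 genes, or 75.6% against 55.7% of all tested genes, the 2 wild-type mice were farther apart than the genotype means. Without the second wild-type library, 19 of 41 genes were higher in G85R, with their median at -0.01. Without the first, 33 of 41 were higher and the median was 0.14.

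**Figure D4:**
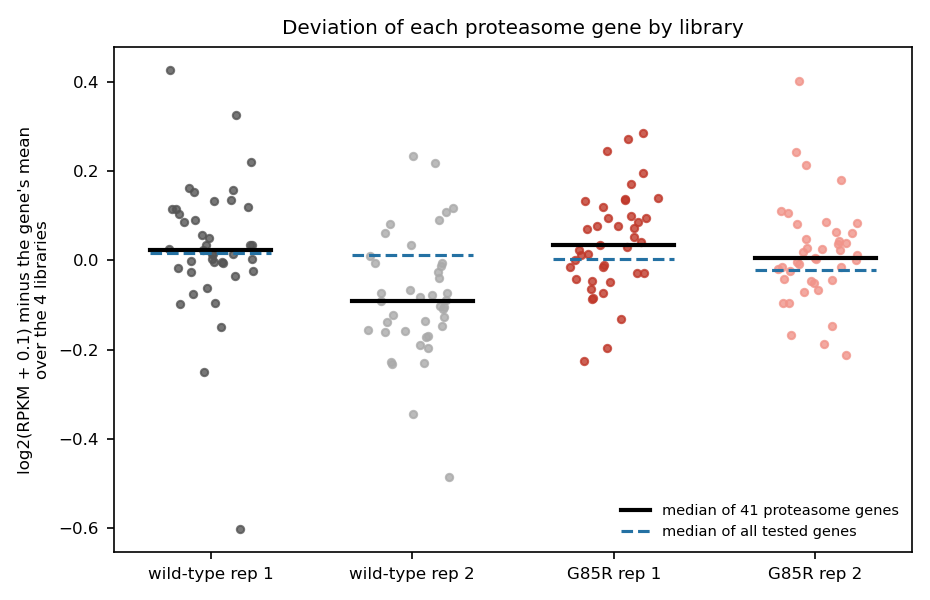
Deviation of each of the 41 tested proteasome genes from its own mean over the 4 libraries, as log2(RPKM + 0.1), by library. Each point is 1 gene, black lines are medians of the 41 genes and dashed lines medians of all tested genes. The second wild-type library has a median of -0.09, and the other 3 lie between 0.00 and 0.03.

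Genes that work with the proteasome were counted in the same way. Of 9 tested proteasome-associated genes, 0 were called. The G85R mean was higher for 4 and lower for 5, and the median log2 fold change was -0.00. Shfm1, the small lid subunit now named Sem1, was at 130 and 154 RPKM against 159 and 177 RPKM (log2 fold change 0.25, limma adjusted p = 0.516). Adrm1, a ubiquitin receptor of the base, was at 2.50 and 2.16 RPKM against 2.11 and 1.96 RPKM, and all of its coding windows were matched elsewhere. The 10 tested genes for ubiquitin shuttles and the Vcp segregase, which draws proteins out of complexes for degradation, had a median of -0.03, with 4 higher, 6 lower and 0 called. Nsfl1c and Rad23b had the largest differences of these, with log2 fold changes of 0.14 and -0.09. Of the coding windows, 69.8% were matched elsewhere for Nsfl1c, 95.5% for Vcp and 0% for Rad23b.

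Nfe2l1, the transcription factor that raises proteasome gene expression when proteasome activity is low, was at 152 and 149 RPKM in wild-type and 177 and 176 RPKM in G85R. Both G85R libraries were above both wild-type libraries, as for 17.3% of all tested genes, and replicates of a genotype lay close together. The log2 fold change was 0.23 ± 0.09 SE with an unadjusted p of 0.040, which did not hold after adjustment over all genes (limma adjusted p = 0.423). An unadjusted p under 0.05 was reached by 11.0% of all tested genes (limma). Ddi2, the protease that activates Nfe2l1, was at 8.65 and 9.14 RPKM against 6.91 and 7.67 RPKM, a log2 fold change of -0.28 (limma adjusted p = 0.476). Of the 5 genes on the list for proteasome transcription 0 were called, 2 being higher and 3 lower. Among the ubiquitin genes, Ubb was at 116, 66.0, 105 and 85.1 RPKM and Rps27a at 0.770, 1.40, 1.96 and 2.32 RPKM in the same order of libraries. The Ubb values are those of the highest of its 3 entries, and 84.0% of its coding windows were matched elsewhere. The log2 fold change of Rps27a was 0.97 with an unadjusted p of 0.014 and an adjusted p of 0.298 (limma), and 100% of its coding windows were matched elsewhere.

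The interferon-induced proteasome genes were set beside other genes of antigen presentation. B2m, the invariant chain of MHC class I, was the only called gene of the 10 tested on this list, at 17.7 and 20.0 RPKM in wild-type and 58.4 and 70.8 RPKM in G85R (log2 fold change 1.77 ± 0.13 SE, limma adjusted p = 0.00256). H2-D1, an MHC class I heavy chain, was at 6.75 and 60.1 RPKM against 104 and 112 RPKM, and the wild-type mice were farther apart from each other than the second of them was from G85R (log2 fold change 2.41, limma adjusted p = 0.369). The transcription factor Irf1 had a log2 fold change of -0.14, and Tap1, the peptide transporter gene beside Psmb9, stood at 0.217 to 0.562 RPKM. Psmb10, Psme1 and Psme2, with log2 fold changes of 0.08, 0.08 and 0.06, did not share the size of the B2m difference, and Psmb8 and Psmb9 were too low to be tested. The summed microglia and astrocyte markers were higher in both G85R libraries than in both wild-type libraries, as B2m was. Within G85R, these sums were higher in the first library and B2m in the second. The part of either cell type in the B2m difference was not tested.

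Promoters were searched for the motifs of Nfe2l1 and of interferon-responsive factors. RefSeq promoters (GRCm38.p6, from 250 bases before to 50 after the start) were found for 37 of the 44 genes. The antioxidant response element core, TGACNNNGC on either strand, was present in 6 of the 37 genes, or 16.2%, and in 3781 of all 27025 genes with a promoter, or 14%. Psmb6 and Psmb5, catalytic subunits, held it just before the start, as shown here with the motif in capitals, centred at -5 and -43 relative to the start.
Psmb6 promoter, chr11:70525338-70525367 (plus strand): ctaaagagagTGACGGAGCgctttacgacg
Psmb5 promoter, chr14:54618023-54618052 (minus strand): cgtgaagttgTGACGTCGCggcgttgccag
The other 4 genes were Psmd9, Psme4, Psmd12 and Psmc6. The interferon response element, searched as GAAA repeated after any 2 bases on either strand, was found in 4 of the 37 genes (Psmd4, Psmd9, Psmb3 and Psme1), or 10.8% against 3.99% of all genes with a promoter. A match to these letters is a description of the sequence.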

How the data were processed

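Laser-captured motor neuron RNA of 4 mice was sequenced as 75-base single-end reads. The authors mapped reads to mm9 and a splice junction database with Bowtie 0.12.3 and quantified genes with Cufflinks, and they deposited 1 RPKM table per library, with a further RPKM column to which 1 read had been added. How reads with several matches were treated was not given in the sources used here beyond counts of reads at a single location. The paper does state that the chaperone gene Hspa8 was left unassessed on account of its processed pseudogenes. The difference between both columns gave the RPKM of 1 read and hence estimated reads. Samples were grouped by their titles. G85R was compared with wild-type on log2(RPKM + 0.1), for genes with a mean of at least 1 RPKM, using limma 3.58.1 (R 4.3.3; lmFit, eBayes with a trend, two-sided, Benjamini-Hochberg adjustment over all tested genes). Fold changes on this scale understate those of low genes. Counts of genes higher or lower in G85R go by the sign of the log2 fold change. The limma p-values, standard errors and intervals rest on a moderated variance. For each gene it joins the spread between the 2 mice of a group with a trend fitted over all tested genes. The log-linear test took rounded RPKM, with 1 read added, as counts, so its p-values do not measure the spread between mice. The script was tested on simulated data. Copies were sought as 75-base windows of the longest coding transcript (GENCODE, NCBI37) matching elsewhere on the 22 chromosome sequences with up to 2 mismatches, the gene itself left out. The members, gene lists and rules were chosen with earlier results of these data known. Named were the catalytic subunits, activators, the highest and lowest member of each class, the 5 highest and 5 lowest log2 fold changes, members under 1 RPKM and, from the lists of proteasome-related genes, called genes or the 2 largest differences. Further genes were named after their values were seen: Psmc3, Psmd14, Psmf1, Psma2, Psma3, Pomp, Dscr2, Tnfsf5ip1, H2-D1, Hbb-b1, Gfap, Irf1 and Tap1. Alternatives changed the pseudocount, scaling, filter, variance model, test, block and libraries. Promoters of 7 members were not analysed here.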

Additional observations from a re-analysis of the deposited data

How the results depend on the processing

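Under all 15 alternatives tried (pseudocounts, 2 rescalings, filters, variance models, a replicate block, the log-linear test and leaving out each library), 0 proteasome genes were called at an adjusted p under 0.05, and the lowest adjusted p of a named member was 0.227. The count at an unadjusted p under 0.05, 0 as reported, was 1 after median-ratio rescaling (Psmb6), with a minimum of 0.1 RPKM or no filter (Psma8), without the variance trend (Psmb3), with the replicate block (Psmb6) and in the log-linear test (Psmb6), and 0 to 1 when a library was left out. The number higher in G85R ran from 19 (without the second wild-type library) to 33 and the median log2 fold change from -0.0074 to 0.14 when a library was left out. With under 5% of coding windows matched, a set chosen after seeing the data, 18 were higher, of the fewer genes tested. The coefficient of variation of 83.3% among core genes was 70.6% with the ATPase, base and lid genes added and 44.3% with under 5% matched. Leaving out a library turned the sign of 8 named members, whose log2 fold changes then ranged from -0.058 to 0.44 for Psma4, -0.025 to 0.79 for Psma5, -0.11 to 0.016 for Psmb5 (0.012 without the first G85R library), -0.11 to 0.013 for Psmd8, -0.18 to 0.034 for Psmd9, -0.13 to 0.28 for Psme1 (-0.081 without the second wild-type library), -0.40 to 0.52 for Psme2 (-0.18 without the first G85R library) and -0.0046 to 0.28 for Psme4. The lone library of a genotype was then assumed to vary like the other genotype, and the cause was not tested. The difference in immunoproteasome share ran from -0.628 to 0.0431 percentage points when a library was left out, moving by less than its SD. Both genotypes have replicate numbers 1 and 2, and whether a number marks a shared batch was not given in the sources used here. The replicate differences of the genotypes had a correlation of 0.220 over all tested genes. A block on them gave 527 calls over all genes where 74 were made without it, and 0 among proteasome genes. Few reads limit Psma8, Psmb8 and Psmb9.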
